A study of Mus musculus with 121 samples.

Results

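Cohesin sites without CTCF were the 8296 of 39745 RAD21 peaks (20.9%) in untreated asynchronous YY1-AID cells that shared no base with a peak of the untreated CTCF list. RAD21 is a core subunit of cohesin, so its peaks mark where the ring-shaped complex is held on chromatin. The sites were chosen by the 2 untreated peak lists alone, and their lack of CTCF and presence of RAD21 are therefore not findings. The other 31449 RAD21 peaks overlapped CTCF and serve as the comparison.

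Cohesin loads on DNA and extrudes loops until it is stopped. CTCF, a zinc finger protein bound to an oriented motif, is the best known barrier, and most stable cohesin peaks in mammalian cells lie at CTCF. Cohesin is also found at active enhancers and promoters, where its loader NIPBL, transcription factors and the transcription machinery are present. LDB1 is a dimerizing adaptor that erythroid cells recruit with GATA1, TAL1 and LMO2 and that links enhancers to promoters. Binding of these partners was not measured in the lists used here. YY1 is a zinc finger transcription factor of promoters and enhancers that has also been described as a looping factor. H3K27ac, acetylation of lysine 27 of histone H3, marks active enhancers and promoters.

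The cells were G1E-ER4, a mouse line of erythroid progenitors derived from embryonic stem cells. In the YY1-AID subline YY1 carries an auxin-inducible degron, so that auxin leads to loss of the protein, and the untreated controls carry the same tag. The labels do not say whether the subline is a single clone. RAD21, CTCF, LDB1 and H3K27ac ChIP-seq came from 2 libraries each of untreated cells and of cells given auxin for 4 h, and YY1 ChIP-seq from 3 libraries each. A second YY1 antibody was used on 2 libraries each, with an auxin time that the labels do not give. Further lists used below were YY1 peaks of 5 cell cycle stages in G1E-ER4 cells of the MD-mCherry subline (3 libraries per stage). For every stage the labels give 7 h of nocodazole. Also used were YY1 peaks of cells titled CTCF-AID without and with 4 h of auxin (2 libraries each), and Micro-C loops and boundaries. The genotype label of the cells titled CTCF-AID names the YY1-AID subline, so the labels leave uncertain which protein auxin removed in them. Micro-C, a conformation assay on chromatin cut by micrococcal nuclease, covered asynchronous cells (5 libraries per treatment) and mid-G1 cells (4 per treatment), with loop lists merged over untreated and auxin cells. The labels used here give no auxin or nocodazole time for the Micro-C libraries.

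Each condition had 1 peak list with positions and no score, so the depth behind a peak is unknown and no value below has a replicate error. Wilson 95% intervals are given instead. They cover counting error over sites only, and neighbouring sites are not independent. No test was made, and differences are described by whether these intervals overlap. RNA-seq of the same subline at 0 h of auxin (3 libraries, 26.0 to 26.2 M counts) gave 585 to 683 CPM (counts scaled to the library total) for Tfrc, the transferrin receptor, 255 to 261 for Tal1 and 128 to 139 for Klf1. The pluripotency gene Pou5f1, the lymphoid gene Cd3e and the myeloid gene Mpo were at 0. Pf4, a megakaryocyte gene, was at 9.16 to 17.0, beside 4.57 to 9.15 for Alas2, the erythroid enzyme of heme synthesis. Sequence and genes at the sites were not analysed here, because the peaks are given in build mm9 and no mm9 genome or annotation was used.

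The sites carried marks of active regulatory chromatin far more often than RAD21 peaks with CTCF. H3K27ac lay at 5283 of 8296 sites (63.7%, interval 62.6 to 64.7), against 25.0% of all RAD21 peaks and 14.8% of those with CTCF. LDB1 peaks lay at 3074 sites (37.1%, 36.0 to 38.1), against 10.2% of all RAD21 peaks and 3.08% of those with CTCF. YY1 peaks lay at 3510 sites (42.3%, 41.3 to 43.4), against 20.0% of all and 14.1% of those with CTCF. The second YY1 antibody, whose list is shorter (9164 peaks against 41163), marked 1355 sites (16.3%), against 6.84% of all and 4.33% of those with CTCF. None of these intervals overlapped between the classes. RAD21, CTCF, LDB1 and YY1 peaks were nearly all 400 bp wide, while the median H3K27ac region was 1440 bp wide, so its share rests partly on the width of the regions. With every peak reduced to its central 200 bp, H3K27ac lay at 20.7% of the sites and 2.85% of RAD21 peaks with CTCF.

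**Figure D1:**
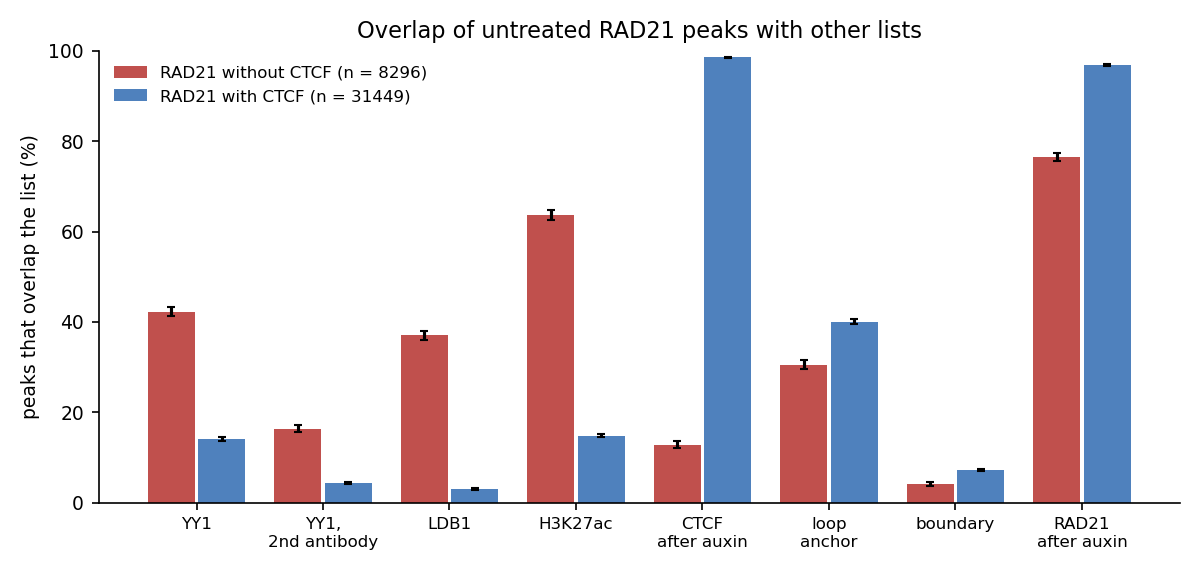
Percent of untreated RAD21 peaks that overlap each list by at least 1 bp, for the 8296 peaks without CTCF (red) and the 31449 with CTCF (blue). Error bars are Wilson 95% intervals, and loop anchors and boundaries are those of asynchronous cells. The sites without CTCF are higher for YY1, LDB1 and H3K27ac and lower for the other lists.

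The 3 marks divided the sites into unequal parts. All of YY1, LDB1 and H3K27ac lay at 1854 sites (22.3%), against 1.43% of RAD21 peaks with CTCF. YY1 with H3K27ac and no LDB1 peak was found at 1408 sites (17.0%), and LDB1 with H3K27ac and no YY1 peak at 971 (11.7%). H3K27ac alone lay at 1050 (12.7%). LDB1 or YY1 without an H3K27ac region was rare, with 166 sites for LDB1, 165 for YY1 and 83 for both. The remaining 2599 sites (31.3%) had none of the 3, against 77.8% of RAD21 peaks with CTCF.

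At the sites that had it, LDB1 lay close to the middle of the RAD21 peak. The distance between the midpoints of overlapping peaks had a median of 66 bp for LDB1, with 29 to 119 bp between the 25th and 75th percentiles. It was 123 bp (58 to 218) for YY1 and 137 bp (62 to 227) for the second antibody. At RAD21 peaks with CTCF the order was turned: YY1 stood at 94 bp and LDB1 at 132 bp, while CTCF itself stood at 27 bp (18 to 35). LDB1 at sites without CTCF thus lay nearer to RAD21 than YY1 did, and farther than CTCF at the other class.

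Read from the side of the other lists, the sites held a modest part of each. A site lay at 17.2% of the 17914 untreated LDB1 peaks, and a RAD21 peak with CTCF at 5.42%. For YY1 the shares were 8.52% and 10.7%, and for H3K27ac regions 20.9% and 19.8%. H3K27ac regions of 5 kb or more held a site in 796 of 1402 cases (56.8%), against 18.5% of the shorter regions, and a RAD21 peak with CTCF in 48.7% against 17.8%. Regions of that width held either class more often, but a wider region covers more bases and no share per kb was computed. The same limit applies to the widths that follow. The median width was 2388.5 bp for regions with a site, 1907 bp for regions with a RAD21 peak with CTCF and no site, and 1221.5 bp for regions without a site. Of the regions, 540 held at least 2 sites. The most sites, 8, lay in the widest untreated region, chr3:137602600-137645279 (42680 bp).

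After 4 h of auxin the RAD21 list was longer, with 50028 peaks, yet it no longer held 1951 of the 8296 sites. The sites were kept at 6345 of 8296 (76.5%, 75.6 to 77.4), against 92.6% of all untreated RAD21 peaks and 96.8% (30454 of 31449) of those with CTCF. The intervals of the classes did not overlap. Sites without CTCF were 20.9% of the untreated peaks and 66.2% (1951 of 2946) of the untreated peaks that were absent after auxin. Every kept site had the same start and end in both lists, and the lists do not give how much RAD21 signal changed. The median distance from an absent site to the nearest RAD21 peak of the auxin list was 2689 bp. With a RAD21 peak within 500 bp accepted, 6549 sites (78.9%) would count as kept.

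Sites that carried YY1 before auxin were kept more often than sites that did not. The kept share was 84.8% (2978 of 3510, 83.6 to 86.0) with an untreated YY1 peak and 70.4% (3367 of 4786, 69.0 to 71.6) without, a difference of 14.5 percentage points (12.7 to 16.2). With the second antibody it was 87.5% against 74.3%. LDB1 and H3K27ac gave differences of like size, 85.0% against 71.4% for LDB1 and 82.1% against 66.6% for H3K27ac. At RAD21 peaks with CTCF the kept share was 97.9% with YY1 and 96.7% without, and 96.6% with LDB1 and 96.8% without.

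The combinations of marks ordered the sites from those kept least to those kept most. Among sites with none of YY1, LDB1 and H3K27ac, 1723 of 2599 (66.3%, 64.5 to 68.1) were kept. Among sites with all 3 it was 1659 of 1854 (89.5%, 88.0 to 90.8). LDB1 with H3K27ac (81.6%, 79.0 to 83.9) and YY1 with H3K27ac (80.8%, 78.7 to 82.8) stood between them, and their intervals overlapped. LDB1 without H3K27ac and YY1 was kept at 61.4% (53.9 to 68.5 over 166 sites), an interval that overlapped that of sites with none of the marks. The same overlap held for YY1 alone (72.7%, 65.5 to 78.9 over 165 sites). It also held for YY1 and LDB1 without H3K27ac (73.5%, 63.1 to 81.8 over 83 sites). H3K27ac alone was kept at 71.4% (68.6 to 74.1), and its interval did not overlap that of sites with none. Sites with all 3 marks were still kept less often than RAD21 peaks with CTCF and all 3 (97.6%, 95.7 to 98.6).

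**Figure D2:**
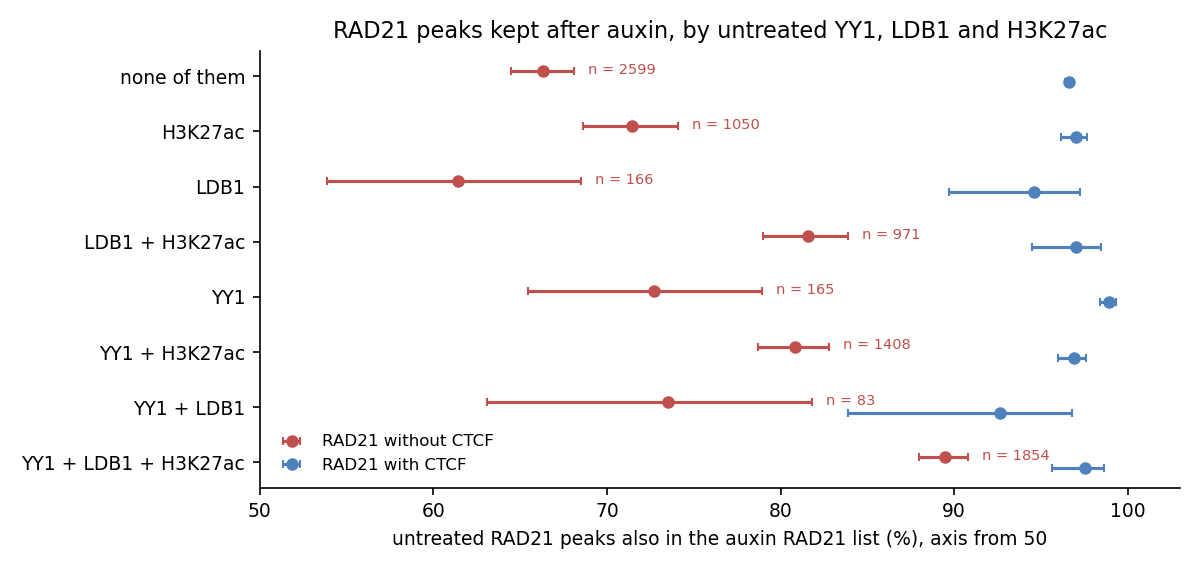
Percent of untreated RAD21 peaks also present in the auxin RAD21 list, by the untreated YY1, LDB1 and H3K27ac peaks they overlap, without CTCF (red, number of sites beside each point) and with CTCF (blue). Bars are Wilson 95% intervals and the axis starts at 50%. Sites without CTCF range from 61.4% to 89.5%, and the combinations with CTCF from 92.6% to 98.9%.

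The auxin lists show what remained at the sites when YY1 was lost. Of the 3510 sites with YY1, 495 (14.1%, 13.0 to 15.3) had a YY1 peak after auxin, against 9.07% at RAD21 peaks with CTCF. The second antibody showed no such gap between the classes, with 282 of 1355 sites (20.8%, 18.7 to 23.1) against 21.2% with CTCF. With the first antibody, 1 site without an untreated YY1 peak had one after auxin. RAD21 was kept at 2530 of the 3015 sites whose YY1 peak was absent after auxin (83.9%, 82.6 to 85.2) and at 448 of the 495 whose YY1 peak stayed (90.5%, 87.6 to 92.8). Sites that lost their YY1 peak thus kept RAD21 more often than sites that had none before auxin (70.4%). LDB1 stayed at 2947 of 3074 sites (95.9%), against 86.9% at RAD21 peaks with CTCF. H3K27ac stayed at 5189 of 5283 sites (98.2%), against 94.6%.

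The other marks mostly stayed at sites whose RAD21 peak was absent after auxin, but less often than at sites that kept RAD21. At sites with LDB1 where RAD21 was absent after auxin, LDB1 was still listed at 418 of 460 (90.9%, 87.9 to 93.2). Where RAD21 was kept, LDB1 was still listed at 96.7% (96.0 to 97.4). H3K27ac was still listed at 908 of 944 sites (96.2%, 94.8 to 97.2) without RAD21 after auxin, and at 98.7% (98.3 to 99.0) with it. Neither pair of intervals overlapped.

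Part of the sites overlapped a CTCF peak after auxin, when the CTCF list had 64548 rather than 59085 peaks. These were 1066 sites (12.8%), against 80.7% of all RAD21 peaks and 98.5% of those chosen for CTCF. Of them 604 (56.7%) had none of YY1, LDB1 and H3K27ac. Seen from that side, CTCF was listed after auxin at 23.2% of the 2599 sites without marks. RAD21 was kept at 89.5% (954 of 1066) of the sites with CTCF after auxin and at 74.6% of the others. Conversely, 459 RAD21 peaks with CTCF (1.46%) had no CTCF peak after auxin, and 75.2% of them were kept.

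RAD21 peaks listed only after auxin also included sites without CTCF. They are called new below. Because the lists have no scores, such a site may have lain under the calling threshold before auxin. The auxin RAD21 list had 13229 peaks without an untreated counterpart, and 6247 of them (47.2%) overlapped CTCF in neither list. In all, 12211 of 50028 auxin RAD21 peaks (24.4%) had no auxin CTCF peak. Of these 5736 (47.0%) had been RAD21 peaks in untreated cells, against 82.1% of auxin RAD21 peaks with CTCF. The new sites with CTCF in neither list overlapped the untreated YY1 list at 34.2%, LDB1 at 28.8% and H3K27ac at 55.5%. The 5391 sites shared by both RAD21 lists, with CTCF in neither, stood higher, at 50.3%, 45.8% and 73.2%. The 1951 absent sites stood lowest, at 27.3%, 23.6% and 48.4%. Sites present in 1 condition thus carried these marks less often than sites present in both. With the auxin lists in place of the untreated ones, LDB1 lay at 29.1% and H3K27ac at 58.1% of the new sites.

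**Figure D3:**
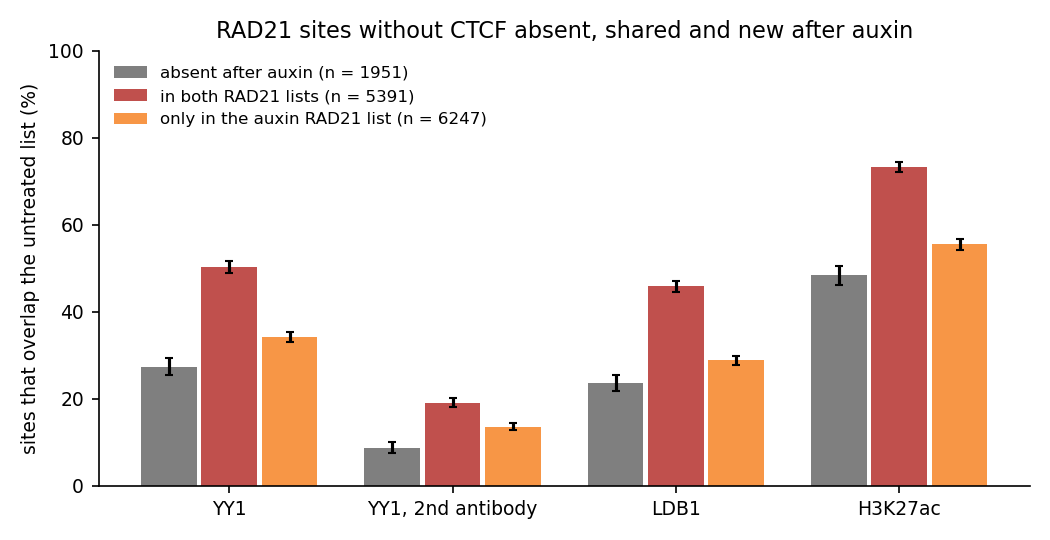
Percent of RAD21 sites without CTCF that overlap the untreated YY1, LDB1 and H3K27ac lists, for the 1951 sites absent after auxin (grey), the 5391 in both RAD21 lists with CTCF in neither list (red) and the 6247 only in the auxin RAD21 list with CTCF in neither (orange). Error bars are Wilson 95% intervals. For each list the shared sites are highest and the absent sites, chosen by untreated CTCF alone, lowest.

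The sites were scattered at varied distances from CTCF. The nearest untreated CTCF peak lay at a median of 4554 bp, with 1476 to 15132 bp between the 25th and 75th percentiles. At the edge of the rule, the 3 closest sites lay 1, 1 and 4 bp from a CTCF peak, and the 3 RAD21 peaks just outside it overlapped CTCF by 2, 2 and 3 bp. Within 200 bp of a CTCF peak were 298 sites (3.59%), and within 1000 bp 1486 (17.9%). Of the RAD21 peaks with CTCF, 453 (1.44%) overlapped it by under 200 bp, so few peaks lay near the border between the classes. The nearest other site without CTCF was at a median of 22432 bp between midpoints, and 34.0% of sites had another within 10 kb. For RAD21 peaks with CTCF, which are more numerous, the values were 12157 bp and 44.4%.

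The shares with marks and in loops differed with distance from CTCF. Up to 1 kb from CTCF 34.3% of the sites had YY1, 21.1% LDB1 and 52.4% H3K27ac. From 5 to 20 kb it was 47.3%, 43.6% and 70.3%, with intervals that did not overlap those of the nearest sites. Beyond 20 kb YY1 (39.3%) and H3K27ac (58.6%) were lower again, while LDB1 (41.9%) was within the interval of the bin before. The share in an asynchronous loop anchor was 51.5% up to 1 kb, 39.8% from 1 to 5 kb, 18.7% from 5 to 20 kb and 12.2% beyond. The kept share was 73.7% up to 1 kb and 79.6% beyond 20 kb. CTCF after auxin was listed at 6.19% of the nearest sites and 16.0% of the farthest.

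**Figure D4:**
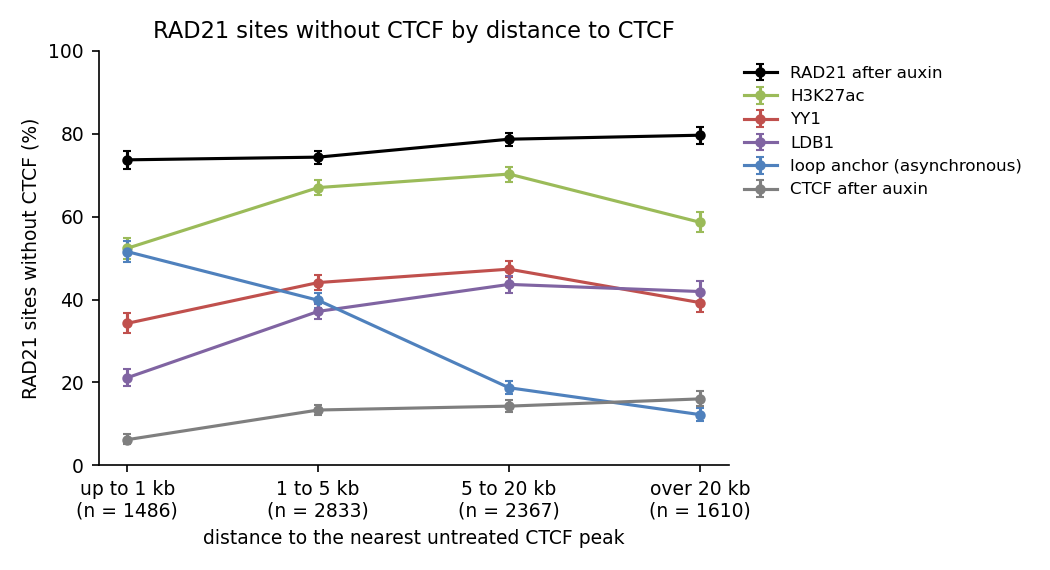
Percent of the RAD21 sites without CTCF that overlap each list, in 4 bins of distance to the nearest untreated CTCF peak. Points are shares of the sites in a bin (1486, 2833, 2367 and 1610 sites) and bars are Wilson 95% intervals. The share in loop anchors falls from 51.5% to 12.2% with distance, and YY1, LDB1 and H3K27ac are each lowest in the nearest bin.

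The sites' share of RAD21 peaks differed among chromosomes, from 16.5% (14.6 to 18.5) on chromosome 14 to 24.5% (22.2 to 26.9) on chromosome 18 among the numbered ones. Chromosome X had the lowest share, 14.4% (125 of 866). Its sites were kept at 90.4% (113 of 125, 84.0 to 94.4), against 71.5% on chromosome 12 to 81.6% on chromosome 3 for the other chromosomes. Of the other intervals, that of chromosome 3 (77.8 to 84.8) alone reached into that of X. The sites on X also had the lowest shares with YY1 (33.6%) and LDB1 (27.2%) and lay farthest from CTCF (median 11221 bp). RAD21 peaks with CTCF were kept at 98.4% on X and at 94.8% to 98.1% elsewhere.

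Loop anchors, 5 or 10 kb wide, held the sites less often than RAD21 peaks with CTCF. In asynchronous cells 2534 sites (30.5%, 29.6 to 31.5) lay in an anchor, against 38.1% of all RAD21 peaks and 40.1% of those with CTCF. In mid-G1 anchors lay 2756 of the same sites (33.2%), against 41.9% and 44.2%. The RAD21, CTCF, YY1, LDB1 and H3K27ac peaks set against mid-G1 anchors are those of untreated asynchronous cells. Domain boundaries held 337 sites in each of the lists (4.06%), against 6.55% of all RAD21 peaks in asynchronous cells and 6.24% in mid-G1. The boundary share was 0.964% and 1.05% where boundaries with a CTCF peak were left out, and 8.02% and 7.84% where boundaries were extended by 5000 bp. Both lists of anchors held 1821 sites (22.0%), the asynchronous list alone 713, the mid-G1 list alone 935, and neither 4827 (58.2%). An anchor is wide enough to hold a CTCF peak beside the site, and 19.8% of the sites lay only in asynchronous anchors that did. In anchors without any untreated CTCF peak were 893 sites (10.8%) in asynchronous cells and 979 (11.8%) in mid-G1.

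The share of sites in such anchors differed by mark. In an asynchronous anchor without CTCF were 13.8% (12.7 to 15.0) of sites with YY1 and 8.50% (7.75 to 9.33) of those without, and 13.8% (12.9 to 14.8) of sites with H3K27ac and 5.41% (4.66 to 6.28) of those without. For LDB1 the values were 11.2% and 10.5%, with intervals that overlapped. Counting every anchor, sites with LDB1 were in one less often (24.0%, 22.5 to 25.5) than sites without (34.4%, 33.1 to 35.7). The differences by YY1 and H3K27ac were not seen over every anchor, with 29.9% of sites with YY1 against 31.0% without, and 30.8% with H3K27ac against 30.2% without, and overlapping intervals. In mid-G1 the shares in an anchor without CTCF were 16.0% with YY1 and 8.71% without, and 13.7% with LDB1 and 10.7% without, and these intervals did not overlap. RAD21 was kept after auxin at 76.6% (74.9 to 78.2) of sites in an asynchronous anchor and at 76.4% of the others, a value inside that interval. At RAD21 peaks with CTCF the same comparison gave 98.7% and 95.6%. Sites in an asynchronous boundary were kept less often, at 70.6% (238 of 337, 65.5 to 75.2), than sites outside boundaries (76.7%, 75.8 to 77.6).

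Loops that joined 2 such sites were few, short and rich in YY1. Of 12738 asynchronous loops, 72 had a site at both anchors and CTCF at neither, with a median length of 95000 bp. The 8104 loops with CTCF at both anchors had a median of 180000 bp. Both anchors held YY1 in 61 of the 72 (84.7%, 74.7 to 91.2), H3K27ac in 66 (91.7%, 83.0 to 96.1) and LDB1 in 33 (45.8%, 34.8 to 57.3). For loops with CTCF at both anchors it was 23.6%, 17.0% and 4.02%. Wider anchors hold more peaks, and 25.0% of the 72 loops had 10 kb anchors, against 35.7% of the loops with CTCF at both. A further 620 loops joined an anchor with a site and no CTCF to one with CTCF, with a median of 140000 bp, YY1 at both anchors in 71.0% and LDB1 at both in 23.4%. With 157 loops between a site and an anchor with neither, 849 loops (6.67%) had an anchor with a site and no CTCF.

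Mid-G1 loops gave similar lengths and marks, with the sites, CTCF and marks again taken from untreated asynchronous cells. Of 14155 loops, 92 joined 2 sites without CTCF, with a median length of 102500 bp against 190000 bp with CTCF at both anchors. Both anchors held YY1 in 85.9% of them, H3K27ac in 91.3% and LDB1 in 51.1%. Anchors of 10 kb made up 45.7% of these loops and 44.8% of those with CTCF at both anchors. Of the 72 asynchronous loops, 30 (41.7%, 31.0 to 53.2) were also in the mid-G1 list, against 51.1% of loops with CTCF at both anchors, a value inside that interval. Of the 92 mid-G1 loops, 26 (28.3%, 20.1 to 38.2) were in the asynchronous list, against 45.3% (44.3 to 46.3) with CTCF at both anchors, and here the intervals did not overlap.

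**Figure D5:**
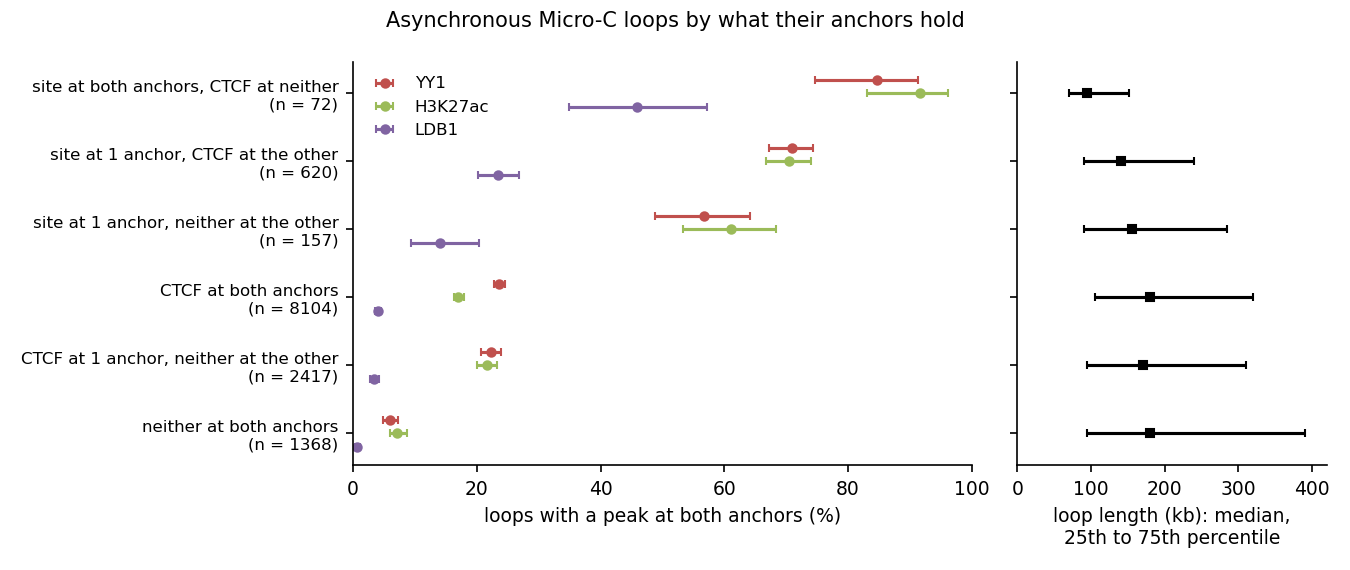
Asynchronous Micro-C loops grouped by whether their anchors hold a RAD21 site without CTCF, a CTCF peak or neither, with the number of loops in each group. The left panel gives the percent of loops with a YY1, H3K27ac or LDB1 peak at both anchors with Wilson 95% intervals, and the right panel the median loop length with the 25th to 75th percentiles. Loops between 2 sites have the highest shares and the shortest median, 95000 bp.

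Few domain edges had a site nearby. The shares here are of edges and depend on class size, with 8296 sites against 31449 RAD21 peaks with CTCF. They therefore do not compare the classes peak by peak. Within 10 kb of edges of domains called in both untreated and auxin asynchronous cells, a site was found at 12.0% and a RAD21 peak with CTCF at 58.7%. For edges of domains called in untreated cells alone it was 7.64% and 41.5%, and in auxin cells alone 6.84% and 39.4%. Mid-G1 edges gave 12.6%, 8.40% and 8.30% for the sites.

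The YY1 lists by cell cycle stage are named by the submitters as emergent peaks of a stage, a term that the sources used here do not define. They overlapped the sites at 101 positions for prometaphase (1.22%, against 0.463% of all RAD21 peaks), 676 for ana/telophase (8.15%, against 3.66%), 993 for early G1 (12.0%, against 5.24%), 265 for mid-G1 (3.19%, against 1.47%) and 22 for late G1 (0.265%, against 0.103%). These shares follow the lengths of the lists, which run from 243 to 10643 peaks. Among the 3510 sites with asynchronous YY1, 1753 (49.9%, 48.3 to 51.6) were in at least 1 of the stage lists. It was 43.1% for RAD21 peaks with both CTCF and YY1 and 31.6% for YY1 peaks without RAD21. For early G1 the values were 23.3%, 19.2% and 15.3%, and for ana/telophase 17.7%, 16.2% and 11.0%. YY1 at cohesin sites without CTCF was thus assigned to a stage more often than YY1 elsewhere, in another subline than the one used for RAD21.

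YY1 in the cells titled CTCF-AID lay at 2175 sites (26.2%, against 10.4% of all RAD21 peaks) without auxin and at 2713 (32.7%, against 11.8%) with it. Of the 2175 untreated sites 89.0% (87.6 to 90.3) also had YY1 in YY1-AID cells. At RAD21 peaks with CTCF it was 87.6% (86.1 to 89.0), an overlapping interval. With auxin 2032 of the 2175 sites (93.4%, 92.3 to 94.4) still had the YY1 peak. It was 79.1% at RAD21 peaks with CTCF and 83.5% over all untreated YY1 peaks of these cells. A YY1 peak with auxin and not without it was found at 681 sites (8.21%) and at 453 RAD21 peaks with CTCF (1.44%). Of the 681, 514 (75.5%, 72.1 to 78.6) had YY1 in untreated YY1-AID cells. Of the 453 it was 68.7% (64.2 to 72.8), again an overlapping interval. The auxin list was longer, 20074 peaks against 16355. YY1 stayed listed in these cells, in contrast to the YY1-AID lists.

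Single sites show the range behind these shares. Among the sites with YY1, LDB1 and H3K27ac, chr17:57309898-57310297 lay in the most asynchronous loops, 6, and in 4 mid-G1 loops. It was kept after auxin together with its YY1 peak, and the nearest CTCF peak lay 3005 bp away, within its anchor. The site chr1:75460332-75460731 lay in 5 asynchronous and 4 mid-G1 loops and was kept, while its YY1 peak was absent after auxin. The next 4 such sites lay in 4 asynchronous loops each and all kept RAD21 and lost the YY1 peak. One of them, chr4:149943968-149944367, is 8383 bp from the nearest CTCF peak. None of its anchors held CTCF, and it lay in no mid-G1 loop.

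Sites without YY1, LDB1 or H3K27ac reached still higher loop numbers beside CTCF. The site chr10:80638606-80639005 lay in 7 asynchronous and 3 mid-G1 loops, was 59 bp from a CTCF peak and was absent after auxin. Of the other 3 in the most loops (6 each), chr11:72376624-72377023 was kept and the others, chr1:135940935-135941334 and chr4:132568672-132569071, were absent. All 4 shared their anchors with CTCF, at most 3242 bp away.

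The 3 sites with YY1 that were absent after auxin and lay in the most loops were chr1:172827230-172827629 (5 asynchronous loops), chr7:86610469-86610868 (4) and chr11:69224377-69224776 (4). Each had H3K27ac and no LDB1 peak, and each had CTCF in its anchor. At the other end, the 3 sites farthest from CTCF were chr1:111731116-111731515 (1006903 bp), chr5:82775656-82776055 (935177 bp) and chr4:30386640-30387039 (934068 bp). They had none of the marks, lay in no loop and were all kept, and the first and the last overlapped a CTCF peak after auxin.

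The widest sites, 797 to 799 bp, were all kept. They were chr9:71778582-71779380 with YY1, LDB1 and H3K27ac, chr9:122929891-122930688 with YY1 and H3K27ac, and chr5:124545326-124546122 with none of these and a CTCF peak after auxin. The densest 100 kb held 15 sites, between chr12:78150697 and chr12:78242036, with 4 CTCF peaks in the same span. Of the 15, 14 were kept, 13 had H3K27ac, 10 LDB1 and 8 YY1, and 5 lay in an asynchronous loop anchor.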

How the data were processed

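RAD21, CTCF, LDB1, H3K27ac and YY1 ChIP-seq and Micro-C of mouse cells were used as lists of positions that the authors deposited, 1 per condition, in build mm9. Per the submitters' processing notes the tools were Bowtie2, deepTools 3.5.1 and MACS2 2.2.7. No source used here gives the peak threshold, how libraries were pooled or which programs called loops and boundaries. For RNA-seq the authors deposited an estimated count for each gene as a whole number, made with Salmon 0.13.1 per the submitters' processing notes, with 9 columns of the table not used. They were scaled to CPM by the library total for the marker genes, and Hbb-b1 was not matched to a row. Some marker genes are not reported here.

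From these lists overlaps of at least 1 bp were computed in Python 3.11.15 with NumPy 2.4.6 and pandas 2.3.3, and Wilson 95% intervals with SciPy 1.17.1. The interval for a difference of shares combines the Wilson bounds by Newcombe's method. Overlap and distance functions were tested on simulated intervals. An anchor or site holds CTCF if an untreated CTCF peak overlaps it. Sites are named as the 3 widest, those in the most loops with all marks (6), with none (4) or with YY1 and RAD21 absent after auxin (3), the 3 farthest from CTCF, those at the edge of the rule and the densest 100 kb, with ties taken by position. The members, lists and rules were chosen with earlier results of these data known. Alternatives covered the overlap required, peak width, the distance from CTCF, CTCF after auxin, chromosome X, anchor width and the YY1 antibody. Expression of genes near the sites and their sequence were not analysed here, since no mm9 annotation was used.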

Additional observations from a re-analysis of the deposited data

How the results depend on the processing

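Of the alternatives tried for the shares, 15 stayed inside the counting interval of the reported value and 34 moved out of it. The kept share could not change with the overlap required, because shared RAD21 peaks have the same coordinates in both lists. It was 74.6% without sites that had CTCF after auxin and 78.9% when an auxin RAD21 peak within 500 bp was accepted. The higher kept share of sites with YY1 held under each alternative, at 13.1 to 15.0 percentage points. With at least 50% of the site covered, the shares were 30.2% for YY1, 11.3% for its second antibody, 33.1% for LDB1, 60.7% for H3K27ac, 0.687% for prometaphase, 5.46% for ana/telophase, 8.20% for early G1, 2.48% for mid-G1, and 18.5% without and 23.1% with auxin in the cells titled CTCF-AID. With only the central 200 bp of each peak they were 30.0%, 11.3%, 33.0% and 20.7% for YY1, the second antibody, LDB1 and H3K27ac. That setting shrinks wide H3K27ac regions to their centres, and RAD21 peaks with CTCF then had 10.5%, 2.97%, 2.07% and 2.85%, still below the sites. Sites with no CTCF peak within 1000 bp had YY1 at 44.1%, LDB1 at 40.5% and H3K27ac at 66.2%, and lay in anchors at 26.0% (asynchronous) and 28.8% (mid-G1) and in boundaries at 3.30% and 3.38%. Sites without CTCF after auxin had YY1 at 44.6%, LDB1 at 40.5% and H3K27ac at 67.2%. With anchors and boundaries extended by 5000 bp the shares were 45.2% and 48.4% for anchors and 8.02% and 7.84% for boundaries. With no CTCF in the same anchor or boundary they were 10.8%, 11.8%, 0.964% and 1.05%. Leaving out chromosome X, tried for the kept share, YY1 with both antibodies, LDB1 and H3K27ac, moved none of these out of its interval.

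No paired analysis was possible because each condition has 1 list with no values per library, which also leaves no library to leave out. Gene expression near the sites, with its edgeR, DESeq2, filter, leave-one-out and replicate block alternatives, and the sequence comparison were not run, since no mm9 annotation or genome was used here. Peaks without scores give no depth, so a site near the calling threshold in 1 condition cannot be told apart from a site that lost or gained RAD21.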
